A study of Homo sapiens with 11 samples.

Results

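The largest histone gene cluster of the human genome lies on the short arm of chromosome 6, and its Ikaros peaks were taken as all deposited peaks that overlap GRCh38 chromosome 6 from 25.7 to 28 Mb. Of 300249 peaks in 5 lists, 251 lay in this window of 2.3 Mb. It holds the transcription start sites (TSSs) of 55 protein-coding histone genes, 11 histone pseudogenes and 22 other protein-coding genes in the GENCODE annotation. Peaks near histone TSSs, those of the 11 pseudogenes included, peaks near other TSSs and the remaining peaks were described apart. A peak near both a histone TSS and another TSS was placed with the histone TSSs. A gene was counted as having a peak when any part of a peak lay within 1000 bp of any of its annotated TSSs.

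The peaks came from chromatin immunoprecipitation and sequencing (ChIP-seq) of Ikaros in established human B-cell acute lymphoblastic leukemia lines. JM1 cells were untreated or held for 1 day in 20 µM CX-4945, which inhibits the kinase CK2. Nalm6 cells had the same dose for the same time, and the cells of REH and 697 were untreated. The JM1 and REH libraries were made with a Bethyl antibody and those of 697 and Nalm6 with an affinity-purified one, per the labels, so line and antibody cannot be told apart between these pairs. Each condition had 1 list, made from 6 Ikaros libraries beside 5 input libraries, and whether the Nalm6 list used 1 or both of its 2 Ikaros libraries was not given in the sources used here. There was therefore no spread between samples, no test and no p-value, and the intervals given are exact Clopper-Pearson 95% intervals that cover counting only. The peak score is the authors' own value for each peak and was used only within a list, as a percentile of that list's scores. No expression was measured, so the lines were not checked against marker genes.

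Ikaros, encoded by IKZF1, is a zinc finger transcription factor of lymphocytes that binds DNA with a GGGAA core, and CK2 is known to phosphorylate it and lower its DNA binding. The genes of this cluster are the replication-dependent histone genes. They are short and intronless, are transcribed in S phase when new DNA must be packaged, and give mRNAs that end in a stem-loop in place of a poly(A) tail. H2A, H2B, H3 and H4 form the nucleosome core and H1 binds the linker DNA between nucleosomes. Many H2A and H2B genes are read away from each other out of a shared promoter.

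Promoter sequences show what separates the histone types. The RefSeq promoter table of build GRCh38.p14 held 50 of the 55 histone genes, and all 50 entries equal the genome sequence used here. The 250 bases before each TSS had a median GC content of 41.6% (range 34.4 to 60.8%), against 62.4% over 15345 protein-coding genes. No histone gene had a peak in all 5 lists. The genes shown were therefore ranked by the number of lists with a peak and then by their lowest score percentile, with 1 gene for each promoter or peak. The lines give the 250 bases before the canonical TSS, 5′ to 3′ on the gene's strand, and capitals mark the CCAAT box, the TATAAA box, the octamer ATTTGCAT, the H1 box AAACACA and the Ikaros core GGGAA, on either strand.
H1-4: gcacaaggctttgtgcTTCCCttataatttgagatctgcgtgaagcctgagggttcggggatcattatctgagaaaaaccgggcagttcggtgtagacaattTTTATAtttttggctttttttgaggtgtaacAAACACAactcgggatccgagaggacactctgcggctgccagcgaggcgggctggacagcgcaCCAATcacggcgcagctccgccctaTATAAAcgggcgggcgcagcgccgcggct
H1-5: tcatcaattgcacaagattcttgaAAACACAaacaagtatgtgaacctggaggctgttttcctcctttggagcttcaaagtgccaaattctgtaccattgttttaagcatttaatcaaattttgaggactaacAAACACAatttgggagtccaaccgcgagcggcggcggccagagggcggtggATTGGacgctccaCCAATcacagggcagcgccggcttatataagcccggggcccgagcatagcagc
H1-2: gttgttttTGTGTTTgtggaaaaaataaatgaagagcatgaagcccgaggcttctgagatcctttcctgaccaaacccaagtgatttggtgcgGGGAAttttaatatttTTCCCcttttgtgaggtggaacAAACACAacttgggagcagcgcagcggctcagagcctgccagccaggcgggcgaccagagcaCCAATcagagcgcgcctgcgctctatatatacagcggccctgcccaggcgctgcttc
H2BC10: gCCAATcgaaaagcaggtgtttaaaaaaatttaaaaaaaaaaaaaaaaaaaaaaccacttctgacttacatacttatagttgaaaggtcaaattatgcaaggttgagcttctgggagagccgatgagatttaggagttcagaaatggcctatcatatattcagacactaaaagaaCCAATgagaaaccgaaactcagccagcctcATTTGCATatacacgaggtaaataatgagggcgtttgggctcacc
H2BC6: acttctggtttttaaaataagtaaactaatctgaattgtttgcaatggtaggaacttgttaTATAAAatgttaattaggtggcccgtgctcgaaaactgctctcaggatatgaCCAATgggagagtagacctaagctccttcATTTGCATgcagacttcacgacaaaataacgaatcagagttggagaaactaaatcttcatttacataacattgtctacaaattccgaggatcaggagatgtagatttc
H3C6: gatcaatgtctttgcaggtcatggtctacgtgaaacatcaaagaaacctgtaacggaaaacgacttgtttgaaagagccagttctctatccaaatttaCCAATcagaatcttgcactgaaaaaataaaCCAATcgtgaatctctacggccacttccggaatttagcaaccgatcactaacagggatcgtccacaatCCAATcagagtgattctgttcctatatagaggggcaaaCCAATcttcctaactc
They lie at chr6:26156079-26156328 (H1-4, plus strand), chr6:27867589-27867838 (H1-5, minus), chr6:26056471-26056720 (H1-2, minus), chr6:26272681-26272930 (H2BC10, plus), chr6:26183511-26183760 (H2BC6, plus) and chr6:26224885-26225134 (H3C6, plus).

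For H2BC6 the highest-scored peaks of 3 lists lie at another annotated start, given with its values. The 3 H1 promoters share the AAACACA box and a CCAAT box close to the TSS, the 2 H2B promoters carry the octamer ATTTGCAT, and the H3C6 promoter holds CCAAT motifs only. Over all matched promoters, both strands searched, CCAAT was found in 86% of the histone promoters against 34.4% of all coding promoters, and TATAAA in 66% against 9.48%. The octamer was in 9 of 11 H2A and 12 of 15 H2B promoters and in 0 of the H1, H3 and H4 promoters, against 1.67% of all. AAACACA was in 6 of 6 H1 promoters and in 0 of the other histone promoters, against 3.7% of all. GGTCCG, part of a known H4 promoter element, was in 9 of 10 H4 promoters, against 12.1% of all. The Ikaros core GGGAA was in 48% of the histone promoters against 60.9% of all. By type it was in 10 of 10 H4, 3 of 6 H1, 3 of 8 H3, 4 of 11 H2A and 4 of 15 H2B promoters. The longer TGGGAA, which contains GGGAA, was in 18% against 20.3%. CACGTG was in 0 of 50 against 7.56%. These are letter matches in 1 window, not binding sites.

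Most histone genes had a peak in the treated JM1 and REH lists, fewer had one in untreated JM1, and almost none in 697 or Nalm6. Untreated JM1 had a peak near 13 of the 55 histone genes (23.6%, interval 13.2 to 37.0%), against 58.7% of the 20046 protein-coding genes of the genome. After CX-4945 the JM1 list had one near 41 (74.5%, 61.0 to 85.3%), against 81.2% of all genes. The REH list had one near 49 (89.1%, 77.8 to 95.9%), against 81.7% of all. In 697 there were 2 (3.64%, 0.443 to 12.5%), against 49.5%, and in Nalm6 4 (7.27%, 2.02 to 17.6%), against 74.3%. With the full lists, the histone share was thus below that of all genes in untreated JM1, 697 and Nalm6, and near it in treated JM1 and REH. With each list cut to its 19652 highest scores, it was below that of all genes in treated JM1 and REH as well. Fewer genes with a peak were not shown to mean less binding, since lists differ in length and read depth was not analysed here.

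**Figure D1:**
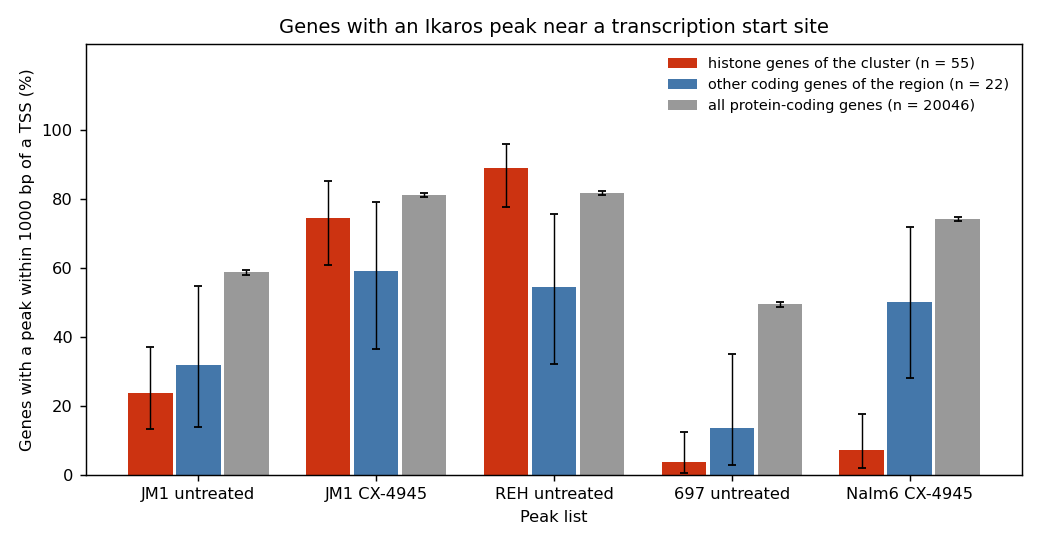
Share of genes with a peak within 1000 bp of a TSS (vertical axis, percent) in each of the 5 lists for the 55 histone genes of the cluster, the 22 other coding genes of the window and all 20046 protein-coding genes; bars are shares and lines exact 95% intervals for counting. The histone bar is at 23.6% in the untreated and 74.5% in the treated JM1 list, and at 3.64% in 697 and 7.27% in Nalm6, where the bars of all genes are 49.5% and 74.3%.

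A pattern of peaks in at least 1 Bethyl list and in neither 697 nor Nalm6 held for 46 of the 55 histone genes (83.6%), against 9.83% of all protein-coding genes and 3 of the 22 other coding genes of the window. Genes with a peak in all 5 lists made up 41.7% of the genome's coding genes, but 0 of 55 here. Most histone genes, 30 of 55, had a peak in exactly 2 lists. Another 8 had 1 list, 11 had 3 lists and 2 had 4 lists. For 1, 2, 3 and 4 lists these are 14.5, 54.5, 20 and 3.64% of the histone genes. Over all protein-coding genes the shares were 4.15, 6.31, 12.4 and 20.7%. The 2 histone genes with 4 lists were H2BC6 and H2BC10, and in both the 697 peak did not reach the canonical TSS. For H2BC6 the highest-scored peaks of treated JM1, REH and Nalm6 were at an annotated start 11702 bp upstream of the canonical one. They lay at chr6:26171856-26172670, chr6:26171759-26172527 and chr6:26171786-26172132, with scores 26, 42 and 38. REH also had a peak at chr6:26183922-26184259, 161 bp from the canonical TSS, with a score of 17. The 697 peak, with a score of 12, was at chr6:26182646-26183044. Counting canonical TSSs alone, an alternative added after the data had been seen, gave 13, 39, 49, 2 and 3 histone genes in untreated JM1, treated JM1, REH, 697 and Nalm6.

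Peaks were also counted over the whole window. The untreated JM1 list had 24 peaks here, the treated one 94, REH 92, 697 9 and Nalm6 32. Per Mb this was 10.4, 40.9, 40.0, 3.91 and 13.9, against 12.1, 28.7, 27.0, 6.35 and 22.96 over the genome. The window was thus denser than the genome by 1.42 times in treated JM1 and 1.48 times in REH. In untreated JM1 it was at 0.861, in 697 at 0.616 and in Nalm6 at 0.606 of the genome's density. The rest of chromosome 6 had 9.01, 24.8, 23.1, 4.65 and 18.8 peaks per Mb in untreated JM1, treated JM1, REH, 697 and Nalm6. Against this the window was denser in untreated JM1 as well as in treated JM1 and REH, and less dense in 697 and Nalm6. Between the JM1 lists the peak number was 3.92 times higher with CX-4945 in the window, 2.75 times on the rest of chromosome 6 and 2.37 times over the genome. Peaks near histone TSSs numbered 10, 30, 35, 2 and 4 in untreated JM1, treated JM1, REH, 697 and Nalm6. Peaks near histone pseudogenes alone are included, such as H2AC2P in treated JM1 and Nalm6 and H3C9P in REH. The SLC17A3 peaks of treated JM1 and REH were also in this class, through the pseudogene H2AC3P. Those near other coding TSSs numbered 7, 13, 12, 3 and 12. Those near only a non-coding TSS or the TSS of another pseudogene numbered 3, 14, 12, 1 and 3, and the rest 4, 37, 33, 3 and 13.

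Among the histone types, H1 genes had the highest share with a peak in each Bethyl list, level with H3 in REH. Untreated JM1 had a peak near 4 of 6 H1 genes, 1 of 12 H2A, 3 of 15 H2B, 3 of 10 H3 and 2 of 12 H4 genes. Treated JM1 had 6 of 6 H1, 10 of 12 H2A, 12 of 15 H2B, 8 of 10 H3 and 5 of 12 H4 genes. REH had 6 of 6, 11 of 12, 13 of 15, 10 of 10 and 9 of 12 in the same order. H4 thus had the lowest share of the 5 types in treated JM1 and in REH. In 697 the 2 genes were both H2B, and in Nalm6 there were 2 H2B, 1 H2A and 1 H3 genes. Neighbouring genes of different types shared peaks, so the types are not independent: 41 genes of treated JM1 rested on 27 distinct peaks and 49 of REH on 32.

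**Figure D2:**
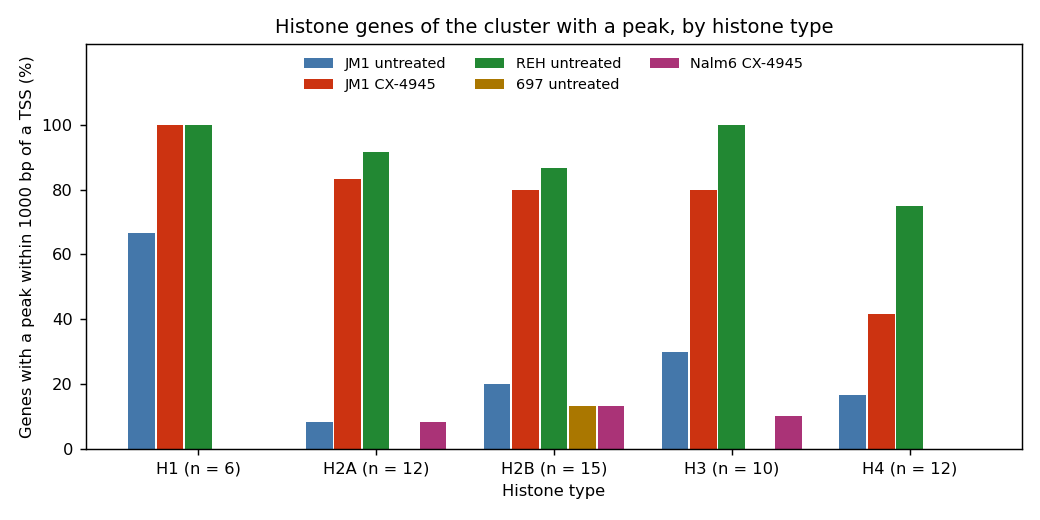
Share of histone genes with a peak (vertical axis, percent) by histone type, with 1 bar per list and the number of genes of each type under the axis. H1 is at 100% in treated JM1 and REH, and H4, at 41.7% and 75.0%, is the lowest type in both.

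The linker histone genes had the highest-ranked histone gene peaks of the Bethyl lists. H1-4, at chr6:26156329-26157115 on the plus strand, had a peak with a score of 25 in untreated JM1 (percentile 91.7 of its list), 72 in treated JM1 (percentile 98.0) and 136 in REH (percentile 99.7), and none in 697 or Nalm6. All 3 peaks covered the whole gene. The REH score was the highest of that list in the window. H1-5, at chr6:27866792-27867588 on the minus strand, had scores of 30 (percentile 96.3), 44 (percentile 93.7) and 68 (percentile 95.4) in the same 3 lists. H1-2 had 19, 39 and 71, and H1-3 had 16, 32 and 57. Their percentiles were 75.7, 91.8 and 95.8 for H1-2 and 58.2, 87.2 and 93.0 for H1-3. So these 4 H1 genes had a peak in every Bethyl list, above the 90th percentile in each for H1-4 and H1-5, and in the middle of the untreated JM1 list for H1-3. H1-1 (scores 14 and 18) and the testis histone gene H1-6 (22 and 20) had peaks in treated JM1 and REH only of the 5 lists.

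Among the core histone genes, treated JM1 gave its highest score, 72, to H2BC5, but through the H1-4 peak that ends at 26157383, short of the H2BC5 start at 26158122. The REH peak at chr6:26156176-26158670 covered both genes. Of the other core histone genes H3C1 and H4C1 led, both in 1 treated JM1 peak at chr6:26020472-26021895 with a score of 30 (percentile 85.0). REH had an almost identical peak at chr6:26020392-26021955 with a score of 33, and untreated JM1 had none. The H2A genes with the highest treated JM1 score were H2AC7 and H2AC16, at 23 (percentile 71.6). H2AC7 shares its TSS with an unnamed gene, ENSG00000282988, and the H2AC16 peak lay upstream over the pseudogene H2BC16P.

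H3C6 was the histone gene with the clearest Nalm6 peak. Its peaks were at chr6:26225145-26226607 in treated JM1, chr6:26225126-26225667 in REH and chr6:26225143-26225523 in Nalm6, with scores of 23, 39 and 53. The Nalm6 score stood at percentile 95.1 of its list. All 3 peaks begin close to the canonical TSS at 26225135 and run into the gene. The remaining Nalm6 peak near a protein-coding histone gene, at H2AC14 and H2BC14, had a score of 15 (percentile 24.5) and lay past the end of H2BC14. In 697 the H2BC10 peak, at chr6:26273509-26273825, had the list's lowest score of 10 and also lay past the gene's end.

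**Figure D3:**
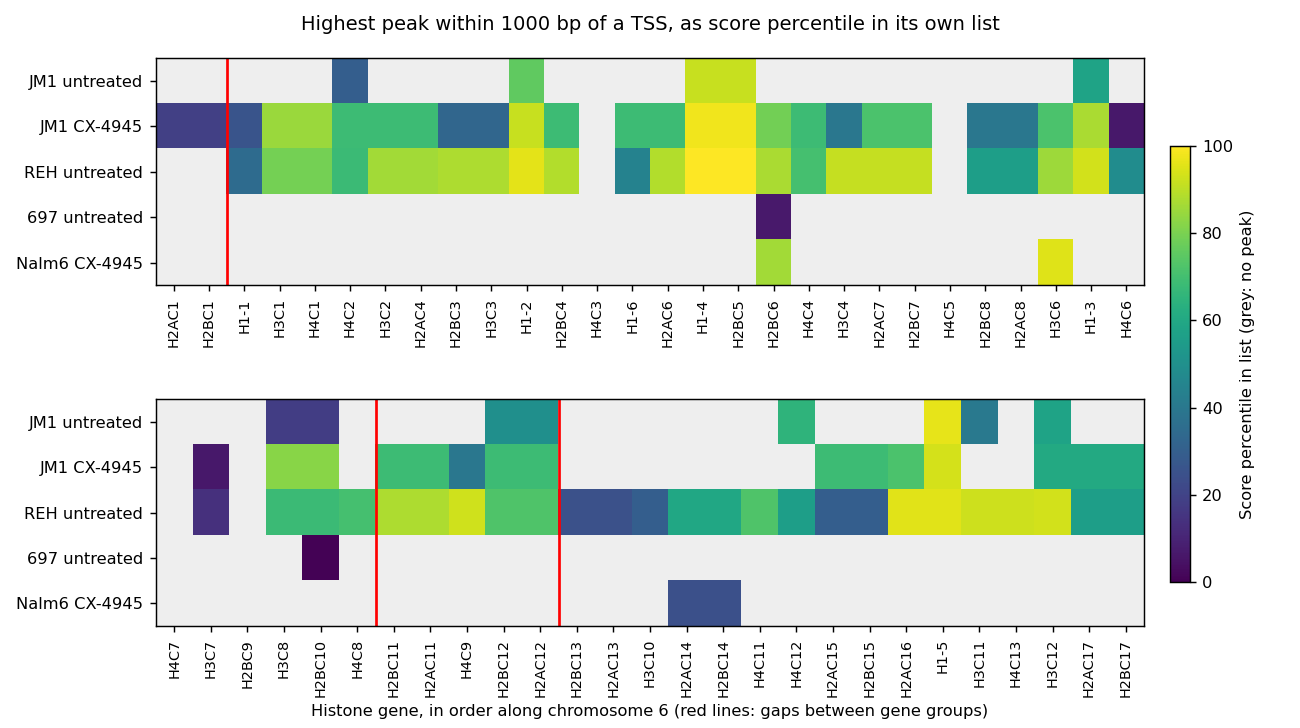
Score percentile of the highest peak near each of the 55 histone genes (colour, percent of the list's own peaks), with genes in chromosomal order across both panels and 1 row per list; grey cells have no peak and red lines mark the gaps between gene groups. The cells of H1-4 and H2BC5, which share a peak, are the brightest of the JM1 CX-4945 and REH rows, at percentiles 98.0 and 99.7, and the 697 and Nalm6 rows are grey but for 2 and 4 genes.

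With CX-4945, JM1 had peaks near many histone genes that lacked one in the untreated list. Of 55 genes, 30 had a peak after treatment alone (54.5%), 11 in both lists, 2 without treatment alone and 12 in neither. Over all protein-coding genes the treated-alone share was 23%, that in both 58.2%, and that in the untreated list alone 0.564%. Of genes with no untreated peak, 71.4% of the 42 histone genes had a treated one, against 55.7% of all such coding genes. The highest-scored of the treated-alone genes were H3C1 and H4C1 (30), H2BC6 (26), and H2AC7, H2BC7, H3C6 and H2AC16 (all 23). The treated-alone genes were 9 of 12 H2A, 9 of 15 H2B, 6 of 10 H3, 4 of 12 H4 and 2 of 6 H1 genes. The 2 genes of the untreated list alone were H3C11 (score 14) and H4C12 (score 17). Both also had a REH peak, with scores of 55 and 23. H3C12 counts as having a peak in both lists, but near different starts. Its untreated peak, chr6:27890420-27890727, was not overlapped by a treated one. The treated peak, also near H2AC17 and H2BC17, was near a start 2280 bp from the canonical one.

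Shorter lists gave a smaller gap between the JM1 lists, since many of the treated peaks at histone genes were of middle rank. When each list was shortened to its 19652 highest scores, the length of the 697 list, the untreated JM1 list reached 7 histone genes, the treated one 10, REH 25, and 697 and Nalm6 2 each. In the order untreated JM1, treated JM1, REH, 697 and Nalm6, these are 12.7, 18.2, 45.5, 3.64 and 3.64% of the histone genes. Among all coding genes the shares were then 45.2, 60.4, 62.1, 49.5 and 54.4%, higher in each list. At the length of the untreated JM1 list, 37448 peaks, treated JM1 reached 30 histone genes against 13 untreated, REH 35 and Nalm6 2. Many peaks tie in score. With all peaks tied at the last score counted in, the REH count at this length was 40 and the treated JM1 count 30. At 19652 peaks the same rule gave 9 histone genes for untreated JM1, 10 for treated JM1, 25 for REH and 2 for Nalm6. Treated JM1 went from 14 histone genes at a score of at least 23 to 27 at a score of at least 22, since 13 genes had a score of 22. The difference between the JM1 lists at histone genes therefore lay mostly in peaks beyond the top 19652. Nalm6 stayed at 2 histone genes at each score minimum from 32 down to 16 and had 4 at 15.

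**Figure D4:**
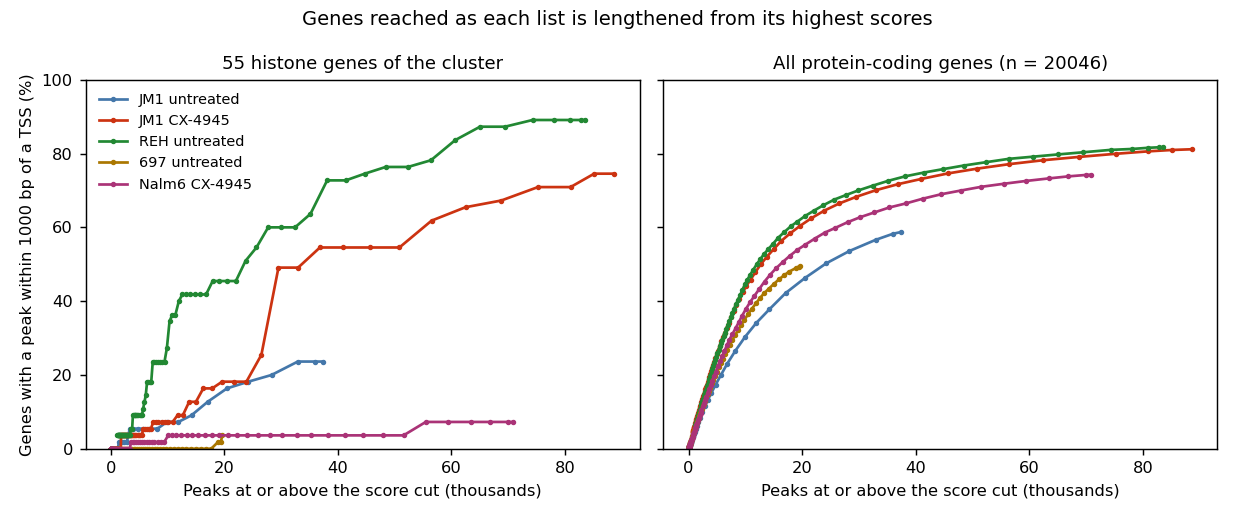
Share of genes with a peak (vertical axis, percent) against the number of peaks at or above each score minimum (horizontal axis, in units of 1000 peaks), for the histone genes (left) and all protein-coding genes (right); each point is 1 score minimum, from 100 down to 10, of 1 list. Beyond 20 on the horizontal axis the REH curve is the highest for histone genes and the 697 and Nalm6 curves stay at or below 7.27%, while the curves of all genes lie closer together.

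Single peaks were also compared by overlap. Of the 24 untreated JM1 peaks of the window, 20 were overlapped by at least 1 bp by a treated peak (83.3%, 62.6 to 95.3%). Over the genome the share was 84.1%. By class it was 7 of 10 near histone TSSs, 7 of 7 near other coding TSSs and 3 of 4 in the rest. In the other direction 19 of 94 treated peaks were overlapped by an untreated one (20.2%, 12.6 to 29.8%), against 29% over the genome. By class this was 7 of 30 near histone TSSs, 7 of 13 near other coding TSSs and 2 of 37 in the rest. REH peaks overlapped 27 of 30 treated and 10 of 10 untreated JM1 peaks near histone TSSs. Near other coding TSSs of the window they overlapped 12 of 13 treated and 7 of 7 untreated JM1 peaks. In the rest these counts were 16 of 37 and 2 of 4. Over the genome REH overlapped 65.7% of treated and 85.2% of untreated JM1 peaks. Of the 9 peaks of 697, 5 were overlapped by Nalm6 (55.6%, against 88.3% over the genome) and 6 by treated JM1 (66.7%, against 91%). Of the 32 Nalm6 peaks, 23 were overlapped by treated JM1 (71.9%, against 74.2%) and 5 by 697 (15.6%, against 21.7%). The share of Nalm6 peaks overlapped by treated JM1 was thus near that over the genome. REH also had peaks that JM1 lacked. Of 55 histone genes 36 (65.5%) had a REH peak and no untreated JM1 peak, against 23.4% of all coding genes. A REH peak and no treated JM1 peak was found at 10 of 55 histone genes, against 649 of 20046 protein-coding genes. These 10 included 9 of the 16 histone genes at the distal end of the cluster.

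The histone genes fall into 4 groups along the window, and the lists covered them unequally. The first holds the testis histone genes H2AC1 and H2BC1 at chr6:25723397-25727345. Treated JM1 had 1 peak near both, with a score of 13 (percentile 18.8), and no other list had one. The largest group, 32 genes from H1-1 to H4C8 at chr6:26017032-26285638, had peaks at 7 genes in the untreated JM1 list, 27 in the treated one, 28 in REH, and 2 each in 697 and Nalm6. The 5 genes at chr6:27125897-27147562, from H2BC11 to H2AC12, had 2, 5, 5, 0 and 0. The last 16 genes, from H2BC13 to H2BC17 at chr6:27807479-27893891, had 4, 7, 16, 0 and 2. Treated JM1 and REH thus came within 1 gene of each other in the large group, but at 7 and 16 genes in the last one. Over the last group REH had peaks with scores of 55 at H3C11 and H4C13, 58 at H3C12 and 68 at H1-5. The widest REH peak of the window, 4039 bp with a score of 23, lay here over H2AC17 and H2BC17. Copy number of the region was not measured.

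Histone genes with no peak in any list were H4C3, H4C5, H4C7 and H2BC9, so 3 of the 4 were H4 genes. They were 7.27% of the histone genes, against 14.7% of all coding genes with a peak in no list. All 4 lie within the largest group, between genes that had peaks.

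Peaks covered the transcribed part of the histone genes more often than the sequence upstream. The genes span 386 to 797 bp with a median of 486 bp, so 1 peak can cover a whole gene. At 200 bp before the canonical TSS a peak covered 1.8% of the histone genes in untreated JM1, 29.1% in treated JM1 and 50.9% in REH. The highest coverage was 16.4% at 400 bp after the TSS in untreated JM1, 50.9% at 200 bp after it in treated JM1 and 78.2% at 300 bp after it in REH. At the TSS itself coverage was 5.5, 40.0 and 63.6%, and over all coding genes 39.8, 72.8 and 74.2%. The highest-scored peak covered the canonical TSS of 3 of the 13 histone genes with a peak in untreated JM1, 22 of 41 in treated JM1 and 35 of 49 in REH. It covered at least 50% of the gene in 8, 26 and 40 cases. The authors' annotation placed peaks near histone TSSs in the promoter class for 1 of 10, 16 of 30 and 18 of 35 in the 3 lists, and most others in exon or transcription end classes. The input libraries had no peak list used here, so the part of the input in this position was not tested.

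**Figure D5:**
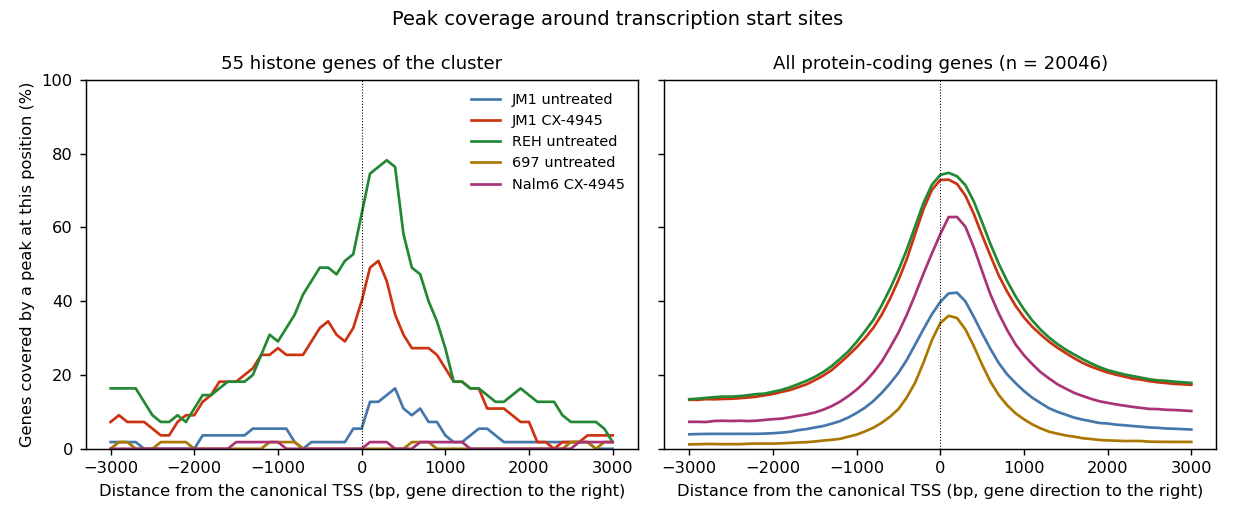
Share of genes covered by a peak (vertical axis, percent) at each distance from the canonical TSS (horizontal axis, bp, gene direction to the right), for the 55 histone genes (left) and all protein-coding genes (right), 1 line per list. For the histone genes the REH line reaches 78.2% at 300 bp after the TSS and the treated JM1 line 50.9% at 200 bp, and the 697 and Nalm6 lines stay near 0.

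The stretch between divergent H2A and H2B genes, which holds the promoters of both, had peaks in treated JM1 and REH only of the 5 lists. The cluster holds 10 such pairs, with 194 to 251 bp between the TSSs and a median of 242 bp. A peak touched this stretch in 0 pairs of untreated JM1, 5 of treated JM1, 8 of REH and 0 of 697 and of Nalm6. It reached from TSS to TSS in 4 of the 5 pairs in treated JM1 and 6 of the 8 in REH. The 5 of treated JM1 were H2AC7/H2BC7 (score 23), H2AC11/H2BC11 (22), H2AC12/H2BC12 (22), H2AC17/H2BC17 (20) and H2AC8/H2BC8 (16). REH had peaks there too, with scores of 51, 43, 29, 23 and 23. In REH alone the stretches of H2AC6/H2BC4 (44), H2AC14/H2BC14 (24) and H2AC15/H2BC15 (17) were touched as well.

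The Ikaros core was counted at the centres of the histone peaks, of which there are few. In the central 201 bp, GGGAA was found in 4 of 10, 13 of 30 and 13 of 35 peaks near histone TSSs in untreated JM1, treated JM1 and REH. Over all peaks of these lists the shares were 51.1, 50.04 and 50.3%, beside histone shares of 40.0, 43.3 and 37.1%. For peaks near other coding TSSs of the window they were 6 of 7, 10 of 13 and 9 of 12. TGGGAA was found in 0 of 10, 4 of 30 and 5 of 35 histone peaks, against 17.8, 19.3 and 19.4% of all peaks. The median GC content of the histone peaks was 57.7, 51.0 and 53.7%, against 60.7, 55.2 and 56.2% of all.

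Histone genes have near-identical copies, which can leave reads without a single place in the genome. Of the 50-base words within 1000 bp of the TSS, a median of 98.6% per histone gene occurred once in the genome (range 76.4 to 100%), against a median of 98.4% for the other coding genes of the window. All words were unique at the 6 H1 genes. The lowest values, from 76.4 to 82.7%, were at H4C11, H4C12, H2AC13, H2BC13, H2AC14 and H2BC14 of the last gene group. REH had a peak near each of these genes and treated JM1 near none. The other genes there with a REH and no treated JM1 peak, H3C10, H3C11 and H4C13, had 100, 98.1 and 100%. In the first 500 bases of the gene the lowest value was 30.6%, at H4C11 and H4C12, and H2AC13 and H2AC14 had 37.3%. Genes with and without a peak had medians of 99.0 and 95.4% in treated JM1 and 98.6 and 97.7% in REH. For untreated JM1 they were 98.6 and 98.5%. In 697 and Nalm6 the order was the reverse, with 96.5 and 98.6% in 697 (2 genes with a peak) and 89.0 and 98.6% in Nalm6 (4 genes with a peak). How the authors' processing handled reads with several places was not given in the sources used here, and its part in these counts was not tested.

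The other coding genes of the window did not share the histone pattern. Of the 22, the untreated JM1 list had a peak near 7 (31.8%), the treated one near 13 (59.1%), REH near 12 (54.5%), 697 near 3 (13.6%) and Nalm6 near 11 (50%). Over all coding genes the shares were 58.7, 81.2, 81.7, 49.5 and 74.3%, higher in each list. Nalm6 thus had peaks near 11 of these 22 genes and 4 of the 55 histone genes. Between the JM1 lists 7 genes had a peak in both, 6 after treatment alone (27.3%, near the 23% of all coding genes) and 0 without treatment alone. PRSS16, which encodes a thymus serine protease, was the 1 gene with peaks in all 5 lists. The highest-scored PRSS16 peak of each list lay at an internal start near chr6:27250672-27252113. Its scores were 21, 74, 17, 31 and 32 in untreated JM1, treated JM1, REH, 697 and Nalm6. The percentile was 98.1 in treated JM1 and 29.9 in REH, the lowest of the 5. Treated JM1 and REH also had a peak at the canonical PRSS16 TSS, with scores of 24 and 14.

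Of the treated-alone genes, the highest-scored were the zinc finger gene ZNF322 (46), BTN1A1 (41), BTN2A1 (28), BTN2A2 (26) and ENSG00000282988 (23). BTN1A1, BTN2A1 and BTN2A2 encode butyrophilins, membrane proteins of the immunoglobulin superfamily. ZNF322 and BTN1A1 also had 697 peaks, with scores of 16 and 18. HMGN4, a nucleosome-binding protein gene, had scores of 34, 37, 68 and 20 in untreated JM1, treated JM1, REH and Nalm6, and HFE, the gene mutated in hereditary iron overload, had 21, 24, 19 and 14. By family, the 3 ZNF genes had 2, 3, 3, 1 and 3 genes with peaks in untreated JM1, treated JM1, REH, 697 and Nalm6. The 6 butyrophilin genes had 0, 3, 2, 1 and 3, and the 4 SLC17A phosphate transporter genes 0, 1, 1, 0 and 0. The 8 genes with a peak in no list were SLC17A1, SLC17A2 and SLC17A4, BTN3A1 and BTN3A2, the olfactory receptor genes OR2B2 and OR2B6, and TRIM38.

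Joining overlapping peaks of all lists gave 131 regions in the window. Of these 45.0% had a peak of 1 list, 32.1% of 2, 12.2% of 3, 9.92% of 4 and 0.763% of all 5. Over the genome the shares were 48.7, 17.9, 14.5, 10 and 8.98%. Of the 40 regions near histone TSSs, 20 had 2 lists, 8 had 3, 1 had 4 and 0 had 5. Of the 14 near other coding TSSs, 8 had 4 lists and 1 had 5. Away from any TSS, 42 of 62 regions had 1 list and 2 had 4. The first of these 2, chr6:26550354-26550966, lies 11916 bp from HMGN4 and had scores of 24, 88, 82 and 24 in untreated JM1, treated JM1, REH and Nalm6. The treated JM1 score was the highest of that list in the window. Its centre on the plus strand, at chr6:26550546-26550845 of GRCh38, is printed because it has the higher lowest percentile of the 2 sites in 4 lists, and capitals mark the 1 match to the reverse complement of TGGGAA.
HMGN4 distal site: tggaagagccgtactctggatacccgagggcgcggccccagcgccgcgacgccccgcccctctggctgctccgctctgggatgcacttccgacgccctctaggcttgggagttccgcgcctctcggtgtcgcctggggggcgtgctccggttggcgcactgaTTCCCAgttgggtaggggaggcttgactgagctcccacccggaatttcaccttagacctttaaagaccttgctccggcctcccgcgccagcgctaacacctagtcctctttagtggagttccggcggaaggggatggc
Its GC content was 65.7%, and all of its 50-base words were unique. The second region, chr6:27826678-27827776, lies 2586 bp from H4C11 and had scores of 19, 36, 20 and 15 in treated JM1, REH, 697 and Nalm6. The stretch common to its peaks had a GC content of 82.8% and only 53.4% unique 50-base words, with up to 737 copies of a word.

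The next 4 regions away from a TSS were in 3 or 2 lists. The region chr6:26341583-26342244 had scores of 64, 38 and 35 in treated JM1, REH and Nalm6. At chr6:27259898-27261468 the scores were 19, 17 and 18 in untreated JM1, treated JM1 and REH. The regions chr6:27091851-27092237 (41 and 41) and chr6:27096759-27097280 (31 and 57) had peaks of treated JM1 and REH. The window also holds 100 transfer RNA genes of the RefSeq table. Peaks overlapped 0, 8, 11, 1 and 1 of them in untreated JM1, treated JM1, REH, 697 and Nalm6. The share over all transfer RNA genes of the genome was not counted and the lists differ in length, so no difference between lists is read from these counts.

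Histone genes elsewhere in the genome had peaks in other proportions. Of 18 histone genes outside the window, taken by the same name prefixes and a few named replication-dependent genes, 5, 9, 9, 3 and 6 had a peak in untreated JM1, treated JM1, REH, 697 and Nalm6, or 27.8, 50, 50, 16.7 and 33.3%. Of these, 9 had a peak in no list, 8 of them on chromosome 1. The share of unique 50-base words was not computed for genes outside the window. Of 11 replacement histone genes, which are transcribed outside S phase too, 9, 11, 10, 9 and 11 had one. These are 81.8, 100, 90.9, 81.8 and 100%, against 58.7, 81.2, 81.7, 49.5 and 74.3% of all coding genes. H3-3A, which encodes the H3.3 variant, had scores of 36, 155, 108, 46 and 38. H2AX, whose protein is phosphorylated at DNA breaks, had 25, 36, 103, 73 and 45. In 697 peaks were thus found near 9 of 11 replacement genes and 2 of 55 genes of the cluster, and in Nalm6 near 11 of 11 and 4 of 55.

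Genes that act in histone supply were counted as well. Of 15 genes of histone transcription and 3′ end processing, 10, 15, 15, 7 and 13 had a peak in the 5 lists in the same order. These are 66.7, 100, 100, 46.7 and 86.7%, against 58.7, 81.2, 81.7, 49.5 and 74.3% of all coding genes. SLBP, which binds the stem-loop of histone mRNAs, had scores of 19, 42, 92, 23 and 76. POU2F1, which encodes an octamer-binding factor, had 44, 298, 98, 48 and 61. NPAT, the coactivator of histone transcription, had a peak in treated JM1 (52) and REH (35) only of the 5 lists, and HINFP, which acts on H4 promoters, in treated JM1 (133), REH (40) and Nalm6 (21). Of 8 histone chaperone genes, 6, 8, 8, 6 and 8 had a peak, or 75, 100, 100, 75 and 100%. With 8 genes the interval is wide, from 34.9 to 96.8% in untreated JM1, and holds the 58.7% of all coding genes there.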

How the data were processed

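Ikaros ChIP-seq libraries of 4 cell lines were compared through 5 peak lists. Read trimming used BBDuk, per the labels' protocols. The submitters' processing notes list Bowtie2 2.3.4.3, HOMER 4.10, MACS2 2.1.1 and GRCh38. The deposited lists give position, a whole-number score (lowest value 10), an annotation class and a nearest gene, all made by the authors, per the file headers. How the score was defined, and the settings and controls of peak calling, was not given in the sources used here. Read depth was not analysed here, and longer lists reach more genes.

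Peaks overlapping the window were taken as deposited and compared with GENCODE release 44 TSSs and the GRCh38 sequence. 0 peaks ran past a sequence end. A percentile is the mid-rank of a score in its own list. Overlap means at least 1 bp. Word uniqueness used exact 50-base words on both strands. Python 3.11.15, numpy 2.4.6, pandas 2.3.3, scipy 1.17.1 and numba 0.67.0 were used, and the gene and overlap counts were tested on simulated data. No test across samples was possible with 1 list per condition.

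The members and lists were chosen with earlier results of these data known. Histone genes were named if they had a peak in all 5 lists, were among the 6 highest-scored of treated JM1 alone (7 with a tie), had no peak, or led their type in treated JM1. H1 genes, the last gene group and genes with a 697 or Nalm6 peak were named after their values had been seen. Of the other coding genes the rule took those in all 5 lists, the 5 highest of treated JM1 alone and those in no list, and HMGN4 and HFE were chosen after seeing the values. The score curves, the count over canonical TSSs and the overlap with transfer RNA genes were chosen after the values were known.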

Additional observations from a re-analysis of the deposited data

How the results depend on the processing

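Of 66 values recomputed under alternatives, 41 stayed within the limits set for a change and 25 moved. With a score of at least 20, the untreated JM1 list kept 9 peaks in the window, the treated one 53, REH 59, 697 3 and Nalm6 16. With each list cut to 19652 top-scored peaks, treated JM1 had 28 peaks, REH 35 and Nalm6 7. Histone genes with a peak were then 7 for untreated JM1, 10 for treated JM1, 25 for REH and 2 for Nalm6, and other coding genes 6 for REH and 2 for Nalm6. With all tied peaks counted in, untreated JM1 had 9 histone genes and treated JM1 10. Counting only the gene the authors name in their promoter class gave 1, 12, 13, 1 and 0 histone genes in untreated JM1, treated JM1, REH, 697 and Nalm6, since that rule gives a peak to 1 gene and leaves out peaks in exon and transcription end classes. A 500 bp window gave 0 histone genes in 697 and 2 in Nalm6. With reciprocal overlap of 50%, 37.5% of untreated JM1 peaks were overlapped by a treated one and 9.57% in the other direction. With both JM1 lists at the 37448 peaks of the untreated one, 32.1% of treated peaks were overlapped by an untreated one. With 19652 top-scored peaks of each list, no merged region had peaks of all 5 lists (0 against 1). No paired analysis was possible because each condition had 1 peak list. Leaving out a replicate was not possible for the same reason. Depth was not analysed here, so the limit it sets on these counts is not known.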
